A study of Drosophila ananassae and Drosophila erecta and Drosophila sechellia with 40 samples.

Results

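The data compared here are transcript levels in the antennal disc of larvae at the third instar (3L) of *Drosophila virilis*, set against the same disc of *D. sechellia*, *D. simulans*, *D. erecta* and *D. ananassae*. *D. virilis* was the distant outgroup of the study. A gene entered the comparison when its mean DESeq-normalized transcript count was above 0 in all 5 species and above 50 in at least one. Of 24678 gene names in the larval table, 7015 met this rule, and 6788 distinct genes remained once names with identical values in all 5 species were counted once. A gene was called *D. virilis*-specific where its *D. virilis* mean lay outside the means of all 4 other species, at any distance. By this rule *D. virilis* was above all 4 others in 1815 genes, below all 4 in 1771 and inside their range in 3202. In 166 of the 6788 genes only the *D. virilis* mean exceeded 50, so these could only lie above all 4 others.

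Each of the 5 species was represented by a wild-type strain, with 2 larval libraries per species and discs of about 70 larvae pooled for each. The flies of every species were kept on cornmeal food at the same temperature and light cycle, and stranded mRNA libraries were sequenced from both ends. The series holds 40 samples over 4 stages, and the mean column of *D. melanogaster* is used below only as the authors' mean, because no library of that species belongs to the samples analysed here. Species, strain, gene models and ortholog assignment change together between the columns and cannot be told apart, and the counts are not divided by transcript length.

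The antennal disc is the larval epithelium that gives rise to the adult antenna, the main olfactory organ of the fly. At this stage transcription factors and secreted signals divide it into concentric and sectorial domains, and proneural genes then set aside the founder cells of the olfactory sensilla inside those domains. The disc is continuous with the eye disc and carries tracheae, blood cells and glia, and it lies close to the larval fat body, so RNA of those tissues can enter a dissected pool.

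The larval file gave 1 mean per species, but the listed digits allowed both libraries behind most means to be found and those library values are called A and B here. Between 97.2% and 99.1% of the values above 0 were resolved in each species, and 6475 of the 6788 genes were resolved in all 5. The 313 others were not resolved in at least 1 of the 5 species and were left out of the tests over libraries. The median absolute log2 ratio between the libraries of one species, over genes above 50, was 0.117 in *D. virilis*, against 0.159 in *D. ananassae*, 0.087 in *D. erecta*, 0.131 in *D. simulans* and 0.099 in *D. sechellia*. The resolved whole numbers summed to 11510143 and 10537511 reads in the *D. virilis* libraries, against 8603264 to 13693759 in the others, and covered 63.4% of the *D. virilis* column total, against 54.6% to 71.5%, so the full depth of each library is higher than these sums. In *D. virilis*, *D. sechellia* and *D. erecta* both whole numbers were even in 90.2%, 89.7% and 93.5% of the resolved values. The shares were 67.6% in *D. simulans* and 74.6% in *D. ananassae*. The source of this split was not tested, and it cannot be told apart from species. Summed levels of the larval fat body markers differed between the pools. They were 722 in *D. virilis*, against 3055 to 6510 in *D. erecta* and *D. sechellia* and 55372 and 100306 in *D. simulans* and *D. ananassae*. In *D. ananassae* the gene *Fbp1* alone had a mean of 53365. Some of the names were listed at 0 in some species, and the source of the difference was not tested.

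The differences were centred near 0. The median difference between *D. virilis* and the mean of the 4 others was 0.02 on the log2 scale over the 6788 genes, with 5th and 95th percentiles of -2.22 and 2.19. *D. virilis* was above all 4 others by 2-fold or more in 368 genes and below all 4 by 2-fold or more in 408. Where both libraries were resolved, the 2 *D. virilis* libraries lay outside all 8 others in 1432 of 1758 genes above and in 1242 of 1686 genes below. The rule has no minimum distance, so 305 genes lay outside the range of the others by under 0.05 on the log2 scale, and 268 lay inside it by under 0.05.

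*D. virilis* was the species most often at an extreme. It was highest in 26.7% and lowest in 26.1% of the genes, while *D. ananassae* was highest in 24.5% and lowest in 22.8%. The other species were highest in 15.3% (*D. sechellia*), 16.7% (*D. simulans*) and 16.7% (*D. erecta*) of the genes. By 2-fold or more *D. virilis* was the highest in 368 genes and the lowest in 408, against 229 and 349 for *D. ananassae* and fewer for the other species. Over the 5414 genes above 50 in all 5 species, the median absolute log fold change (ALFC, log2) of *D. virilis* was 0.562 against *D. ananassae*, 0.55 against *D. simulans*, 0.476 against *D. sechellia* and 0.449 against *D. erecta*. The pairs among the other 4 species ran from 0.267 (*D. sechellia* with *D. erecta*) to 0.488 (*D. sechellia* with *D. ananassae*), so the ranges overlapped, and *D. erecta* lay no farther from *D. virilis* (0.449) than from *D. ananassae* (0.471). *D. simulans* and *D. ananassae*, which had the lower shares of even values, lay at 0.394 from each other. *D. virilis*, with a high share, lay nearer to *D. erecta* and *D. sechellia*, whose shares were also high, than to these 2 species. Whether the split plays a part in these distances was not tested. *D. simulans* lay at 0.406 from *D. erecta* and at 0.34 from *D. sechellia*.

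**Figure D1:**
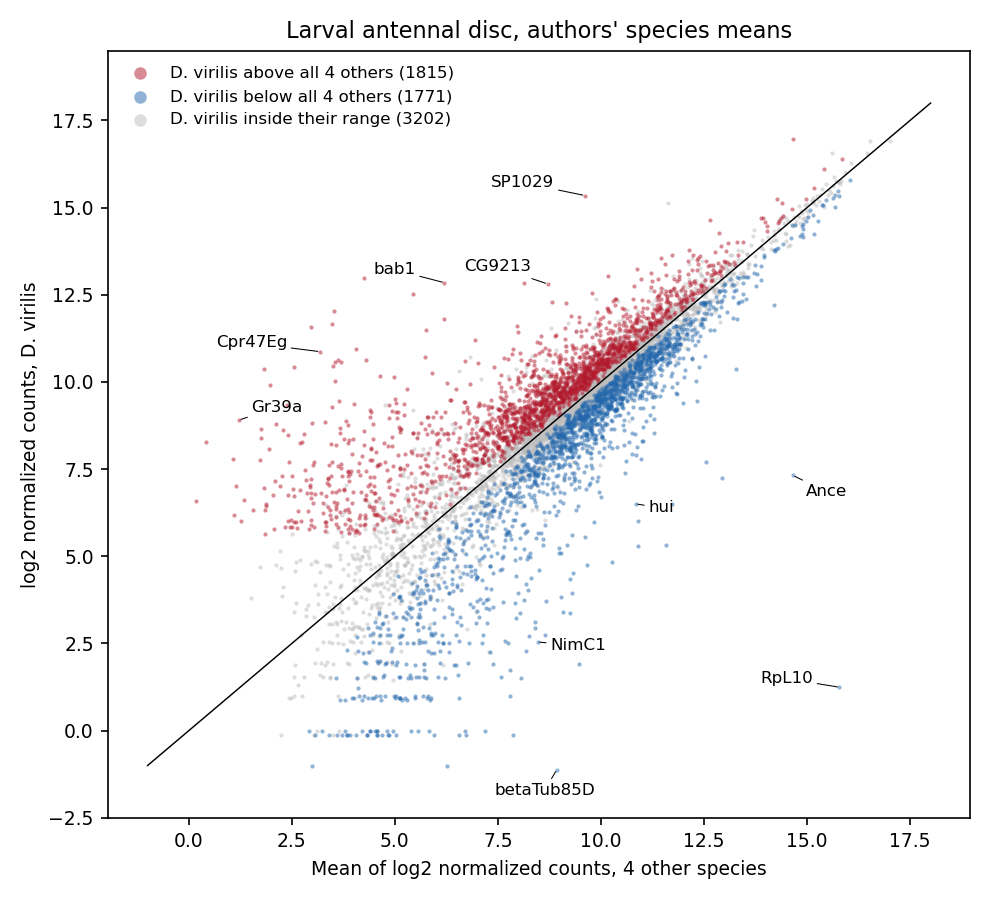
Each point is 1 of the 6788 genes, with the *D. virilis* mean on the vertical axis and the mean over the 4 other species on the horizontal axis, both as log2 DESeq-normalized counts, and the line marks equal values. Genes above all 4 others (1815, red) and below all 4 (1771, blue) lie on both sides of the line, and *bab1*, *SP1029* and *Ance* are among the genes farthest from it.

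The test over libraries used limma on log2(value + 1), with p-values adjusted by the Benjamini-Hochberg method over the 6475 resolved genes and a threshold of 0.05. Against the mean of the 4 others, *D. virilis* was higher in 2387 genes (36.9% of those tested) and lower in 2262 (34.9%). A stricter form asked that *D. virilis* differ from each of the 4 species in the same direction, and took the largest of the 4 p-values for each gene. *D. virilis* rose above each of the 4 in 786 genes (12.1%) and fell below each of them in 737 (11.4%). All adjusted p-values below are from the stricter form unless the mean of the 4 is named. The study describes the 2 libraries of a species as biological replicates but the labels name no separate cultures, so these p-values measure the spread between 2 pools of discs.

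Among the genes above 50 in all 5 species whose 2 *D. virilis* libraries lay outside all 8 others, the largest excess belonged to CG9213, for which no role is given here. It had 7516 and 6870 normalized counts in the *D. virilis* libraries, against 597 and 451 in *D. ananassae*, 523 and 385 in *D. erecta*, 517 and 580 in *D. simulans* and 244 and 221 in the *D. sechellia* libraries. The *D. virilis* libraries were more than 10 times those of any other species, and the difference was 4.11 ± 0.15 on the log2 scale (SE, adjusted p = 6.34e-05, limma). CG9413 had 1736 and 1399 normalized counts in *D. virilis*, against a range of 69.4 to 192 over the 8 other libraries. CG9812 had 1662 and 1351 in *D. virilis*, against 35.0 to 285. Libraries that lay apart were a condition for this set, so the lack of overlap in its genes is not a result.

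Of the genes with a symbol in that set (above 50 in all 5 species, libraries resolved and apart), the largest excess was that of *Spn100A*, a member of the serpin family of protease inhibitors. It had 4765 and 5251 normalized counts in *D. virilis*, against 126 and 142 in *D. ananassae*, 1464 and 1633 in *D. erecta*, 1209 and 2357 in *D. simulans* and 130 and 97.7 in the *D. sechellia* libraries. *Spn100A* separated *D. virilis* from all the others (adjusted p = 0.0106, limma), but the 4 others differed widely among themselves. *Hsp67Bc*, a small heat shock protein, had 2718 and 2790 in *D. virilis*, against 47.8 to 838 (median 347) over the other 8 libraries (adjusted p = 0.00456, limma). *Tsf3*, of the transferrin family of iron-binding proteins, had 531 and 598 in *D. virilis* and 73.0 to 150 elsewhere (adjusted p = 2.27e-04, limma).

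*Prestin*, an anion transporter, had 1599 and 1733 normalized counts in *D. virilis*, against 215 and 253 in *D. ananassae*, 177 and 190 in *D. erecta*, 234 and 211 in *D. simulans* and 173 and 173 in the *D. sechellia* libraries. The 4 other species kept within a narrow band, and *D. virilis* was 3.04 ± 0.08 higher on the log2 scale (SE, adjusted p = 2.43e-05, limma). *RyR*, the ryanodine receptor that releases calcium from internal stores, had 643 and 486 in *D. virilis* against 49.8 to 100 (median 61.0) elsewhere (adjusted p = 2.63e-04, limma), with an authors' mean of 7.98 in *D. melanogaster*. *Nox*, the NADPH oxidase, had 1563 and 1619 in *D. virilis* and 132 to 699 elsewhere (adjusted p = 4.41e-04, limma).

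*Obp83g*, of the odorant-binding protein family, had 1513 and 1249 normalized counts in *D. virilis*, against 67.8 and 58.0 in *D. ananassae*, 392 and 415 in *D. erecta*, 155 and 144 in *D. simulans* and 208 and 222 in the *D. sechellia* libraries (adjusted p = 1.85e-04, limma). *mus304*, a gene of the DNA damage checkpoint, had 2079 and 2327 in *D. virilis* and 229 to 597 elsewhere (adjusted p = 3.34e-04, limma), and *AlkB*, of the dioxygenases that remove alkyl groups from nucleic acids, had 1194 and 1179 in *D. virilis* and 114 to 289 elsewhere (adjusted p = 1.81e-05, limma). *yellow-b* (2326 and 2187 in *D. virilis*, 175 to 771 elsewhere, adjusted p = 0.00216, limma) and *Rbp4*, an RNA-binding protein gene (566 and 678 in *D. virilis*, 48.8 to 373 elsewhere, adjusted p = 0.0328, limma), were also in this set. The *mth*, *mthl2*, *mthl3* and *mthl4* names, receptors of the methuselah family, shared 1 value and cannot be told apart. Their *D. virilis* libraries had 8549 and 8243, against 372 to 4260 (adjusted p = 0.0405, limma).

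For a pair of these genes the distance was small to some of the species. *mfas*, a cell adhesion gene, had 5996 and 6095 normalized counts in *D. virilis* and 4231 and 3518 in *D. sechellia*, while the other 3 species stayed at 1371 or below (adjusted p = 0.00799, limma). *MRP*, an ABC transporter, had 3627 and 3966 in *D. virilis* against 3465 and 3484 in the *D. erecta* and 3434 and 3386 in the *D. sechellia* libraries, and it missed the threshold of the stricter test (adjusted p = 1, limma). The large mean difference of *MRP* came from the low values of *D. simulans* (182 and 179) and *D. ananassae* (83.7 and 52.7).

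**Figure D2:**
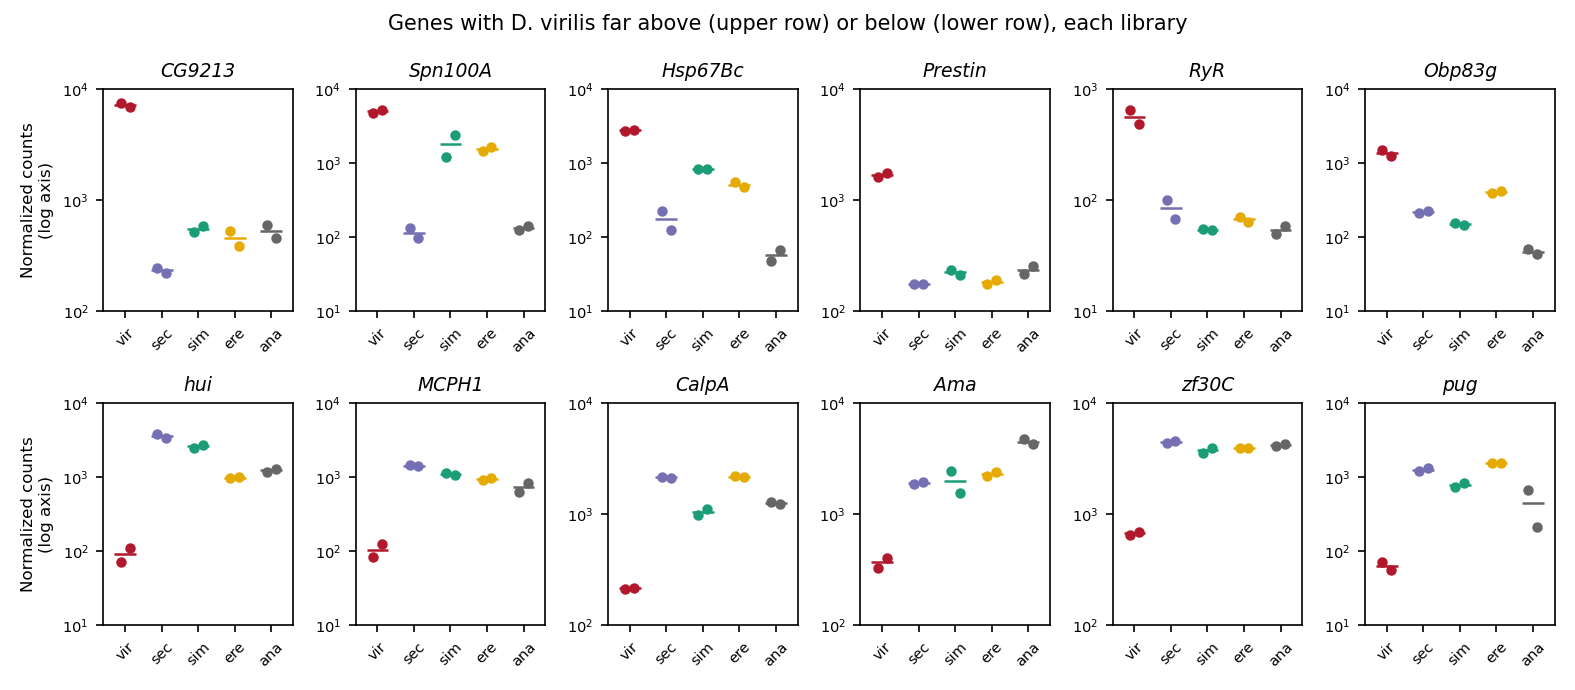
Normalized counts of both libraries (points, log axis) and their mean (line) for 12 genes, with *D. virilis* at the left of each panel, then *D. sechellia*, *D. simulans*, *D. erecta* and *D. ananassae*; each panel has its own axis range. In the upper row *CG9213*, *Spn100A*, *Hsp67Bc*, *Prestin*, *RyR* and *Obp83g* stand above all others, and in the lower row *hui*, *MCPH1*, *CalpA*, *Ama*, *zf30C* and *pug* stand below.

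Apart from *Lsp1gamma* of the fat body, described with the tissue markers, the deepest deficit among genes above 50 in all 5 species whose libraries were resolved and lay apart was that of *hui*, for which no role is given here. It had 71.4 and 110 normalized counts in the *D. virilis* libraries, against 1192 and 1289 in *D. ananassae*, 971 and 999 in *D. erecta*, 2470 and 2768 in *D. simulans* and 3790 and 3413 in the *D. sechellia* libraries. The difference was -4.36 ± 0.15 on the log2 scale (SE, adjusted p = 8.92e-05, limma). Libraries that lay apart were a condition for the low genes too, so their lack of overlap is not a result. *MCPH1*, a chromosome condensation gene of the microcephalin family, had 84.3 and 126 in *D. virilis* against 634 to 1445 (median 1019) elsewhere (adjusted p = 2.19e-04, limma). *pug*, an enzyme of folate metabolism, had 71.4 and 56.0 in *D. virilis* against 211 to 1570 elsewhere (adjusted p = 0.00919, limma), with the lowest of the others in 1 *D. ananassae* library.

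*CalpA*, a calcium-dependent protease, had 212 and 216 normalized counts in *D. virilis*, against 988 to 2188 over the other libraries (adjusted p = 1.81e-05, limma). *zf30C*, a zinc finger gene, had 648 and 694 in *D. virilis*, while the 8 other libraries all lay between 3578 and 4558 (difference -2.61 ± 0.06 on the log2 scale, SE, adjusted p = 1.81e-05, limma), so the 4 other species lay within a narrow range. *Ama*, a secreted adhesion protein of the immunoglobulin family, had 331 and 406 in *D. virilis* against 1569 to 4723 elsewhere, and *l(3)neo38* had 623 and 774 against 2412 to 9740 (adjusted p = 4.37e-04 and 1.55e-04, limma). *step*, an activator of Arf GTPases, had 114 and 149 in *D. virilis* against 467 to 2410 (adjusted p = 2.02e-04, limma). *Gadd45*, a stress response gene, had 121 and 122 in *D. virilis* against 406 to 1423 (adjusted p = 9.55e-04, limma).

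*mav*, a ligand of the TGF-beta family, had 289 and 342 normalized counts in *D. virilis*, against 460 and 488 in *D. ananassae*, 3458 and 3130 in *D. erecta*, 2398 and 2749 in *D. simulans* and 4092 and 4627 in the *D. sechellia* libraries (adjusted p = 0.0137, limma). Its *D. ananassae* level was nearer to *D. virilis* than to the other 3 species. *Strica*, a caspase gene, had 93.4 and 64.0 in *D. virilis*, and *mey* 147 and 160, against at least 195 and 499 in the other species (adjusted p = 0.00257 and 0.0028, limma). The lowest of the CG-numbered genes, CG2641, had 126 and 104 in *D. virilis* against 285 to 1746 elsewhere (adjusted p = 3.69e-04, limma). CG18547 had 73.3 and 88.0 in *D. virilis* against 192 to 1550 elsewhere, and CG11686 had 78.8 and 96.0 against 361 to 1234.

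Several genes very abundant in some species were far apart in the means but were not resolved in every species, and were singled out after their values were seen. *SP1029*, a membrane aminopeptidase gene, had a mean of 41706 in *D. virilis*, against 236 in *D. ananassae*, 2054 in *D. erecta*, 243 in *D. simulans* and 3165 in *D. sechellia*. *Ance*, a peptidase related to angiotensin converting enzyme, had a mean of 160 in *D. virilis* against 58505 in *D. ananassae*, 5939 in *D. erecta*, 31593 in *D. simulans* and 41094 in *D. sechellia*. The *D. virilis* libraries of *Ance* were resolved and differed, at 222 and 98.0. The entry shared by *Act5C* and *Act42A*, the cytoplasmic actins, had 128120 in *D. virilis* against 23406 to 30550, and the entry shared by the muscle actins *Act57B*, *Act87E* and *Act88F* had 207 in *D. virilis* against 3749 to 8825. The ribosomal protein gene *RpL10* was listed at 2.37 in *D. virilis* against 49598 to 75353 in the others. *RpL10* encodes a subunit that every cell uses, so this listed value was not read as expression.

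The position of *D. virilis* differed between gene groups. The shares below were read against all 6788 genes, of which 26.7% were above all 4 others and 26.1% below, with a median difference of 0.02. The 5 lists of patterning genes (antennal selectors and prepatterning factors, proneural and sensory precursor genes, and the Notch, Hedgehog, Wingless and Dpp, and Egfr pathways) held 140 distinct genes. *D. virilis* was below all 4 others in 75 of them and above all 4 in 12, and the median difference was -0.5 on the log2 scale, with 106 of 140 differences negative. In the stricter test 35 of the 135 resolved genes fell and 2 rose, where 11.4% and 12.1% of all tested genes did so. Against the mean of the 4 others 85 were lower and 16 higher, where 34.9% and 36.9% of all tested genes were.

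**Figure D3:**
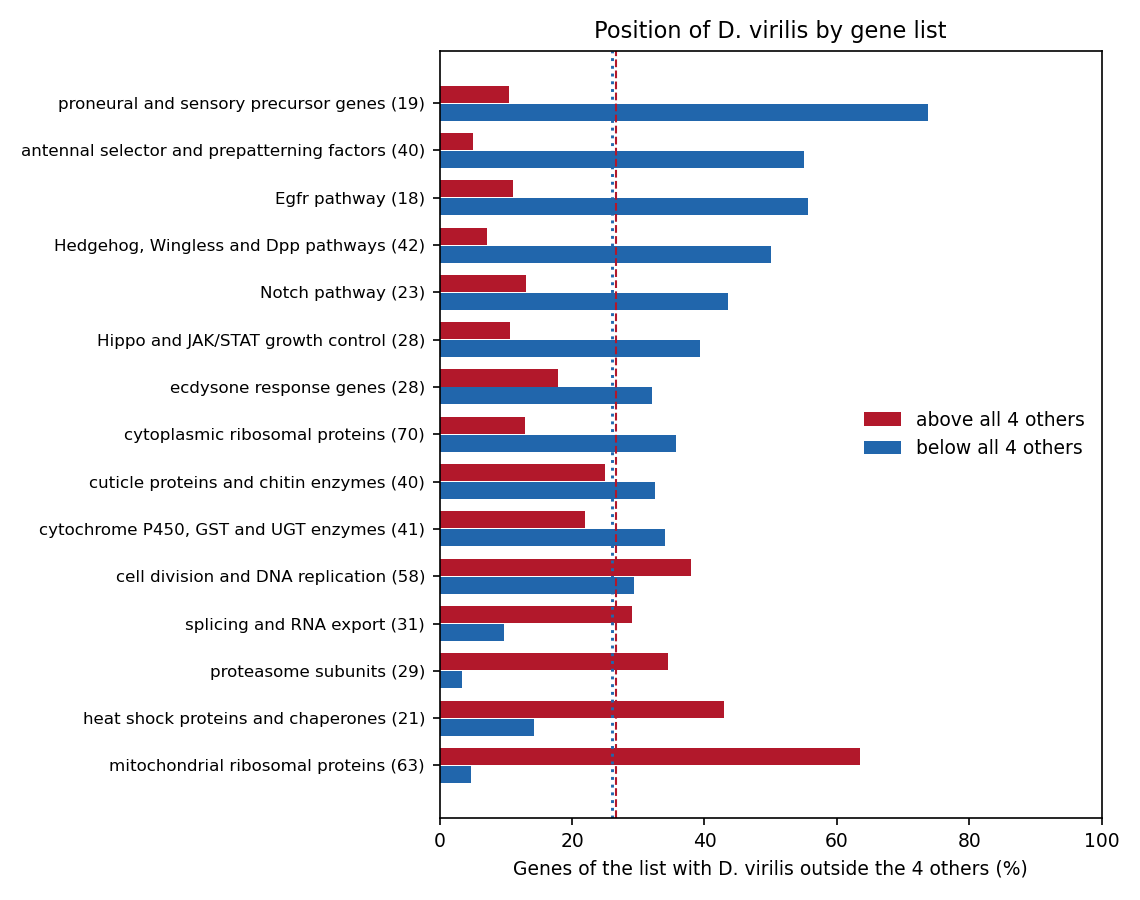
Share of each gene list (number of genes in brackets) in which *D. virilis* was above (red) or below (blue) all 4 other species; the dashed red and dotted blue lines give the shares over all genes, 26.7% and 26.1%. The patterning lists have long blue bars, the mitochondrial ribosomal proteins a long red bar.

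Of the 40 antennal selector and prepatterning genes, *D. virilis* was below all 4 others in 22 and above in 2, with a median difference of -0.6. 10 of them fell in the stricter test and 1 rose. *bab2*, a BTB transcription factor that patterns the leg and antennal discs in rings, had 509 and 545 normalized counts in *D. virilis*, against 2765 and 3824 in *D. ananassae*, 2399 and 2283 in *D. erecta*, 2592 and 2690 in *D. simulans* and 1463 and 1402 in the *D. sechellia* libraries (difference -2.13 ± 0.12, SE, adjusted p = 7.10e-04, limma). In bulk tissue, fewer cells with a transcript and less of it per cell cannot be told apart. The neighbour and paralog *bab1* had the opposite pattern, with 7500 and 7260 in *D. virilis* against 25.9 and 44.8 in *D. ananassae*, 48.1 and 82.2 in *D. erecta*, 133 and 143 in *D. simulans* and 95.3 and 88.8 in the *D. sechellia* libraries (difference 6.65 ± 0.24, SE, adjusted p = 7.90e-05, limma). The 2 genes are close paralogs, and the names follow the ortholog entries of each species, so the split between them is uncertain. The sum of both means was 7907 in *D. virilis*, against 3330 in *D. ananassae*, 2406 in *D. erecta*, 2779 in *D. simulans* and 1524 in *D. sechellia*, and the authors' means of *D. melanogaster* summed to 3825.

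*danr*, of the *distal antenna* family, had 520 and 552 normalized counts in *D. virilis* against 833 to 1847 (median 1421) in the 8 others (adjusted p = 0.00585, limma). *ey*, the Pax6 gene of the eye field, had 282 and 384 in *D. virilis* against at least 575 elsewhere (adjusted p = 0.0355, limma). *Dll*, the selector of distal appendage identity, was named after its values were seen: it had 1167 and 1377 in *D. virilis* and 2005 to 3323 elsewhere (adjusted p = 0.0332, limma). *ap* was the only other member above all 4 others, at 205.2 and 276 in *D. virilis* against 96.6 to 194 elsewhere, and missed the threshold (adjusted p = 0.385, limma). Without the eye field genes *ey*, *eya*, *toy*, *eyg*, *toe* and *Optix*, 34 genes remained and 18 of them were below all 4 others.

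The proneural and sensory precursor genes, which select and specify the mother cells of sense organs, were below all 4 others in 14 of 19 and above in 2 (median difference -0.92), with 9 of the 19 falling in the stricter test and none rising. *sc* (*scute*), a proneural gene of the achaete-scute complex, had 128 and 131 normalized counts in *D. virilis*, against 209 and 256 in *D. ananassae*, 726 and 780 in *D. erecta*, 528 and 538 in *D. simulans* and 649 and 607 in the *D. sechellia* libraries (difference -1.92 ± 0.08, SE, adjusted p = 0.00176, limma). *phyl*, needed to form sense organ precursors, had 86.1 and 66.0 in *D. virilis* and 189 to 299 elsewhere (adjusted p = 0.00279, limma). *onecut* was low in all species, at 5.50 and 6.00 in *D. virilis* against 21.7 to 102 elsewhere (adjusted p = 0.0478, limma). *tap* was above all 4 others in its means but missed the threshold (112 and 148 in *D. virilis* against 10.5 to 83.2, adjusted p = 0.133, limma).

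The signalling lists leaned the same way. In the Notch list, 10 of 23 genes were below all 4 others (median difference -0.21) and 4 of 22 resolved genes fell, among them *neur*, the ubiquitin ligase that activates the ligand Delta, with 296 and 278 normalized counts in *D. virilis* against 693 to 1280 elsewhere (adjusted p = 0.00368, limma), and the effector genes *E(spl)m3-HLH*, *E(spl)m7-HLH* and *E(spl)mdelta-HLH* (adjusted p = 0.00467, 0.00644 and 0.0064, limma). In the Hedgehog, Wingless and Dpp list, 21 of 42 genes were below all 4 others (median difference -0.45) and 10 of 39 resolved genes fell. *shn*, a zinc finger cofactor of the Dpp pathway, had 572 and 676 in *D. virilis* against 1515 to 4504 elsewhere (adjusted p = 5.02e-04, limma), and *Notum*, a secreted inhibitor of Wingless, had 132 and 112 against 303 to 564 (adjusted p = 5.89e-04, limma). In the Egfr list, 10 of 18 genes were below all 4 others (median difference -0.5) and 4 of 17 fell, with *ru*, a rhomboid-like protease of the pathway, at 25.6 and 35.98 in *D. virilis* against 115 to 248 (adjusted p = 0.0064, limma) and *vn*, a ligand, at 141 and 174 against 241 to 574 (adjusted p = 0.0104, limma). *wls*, which exports Wingless, rose, with 3013 and 3018 in *D. virilis* against at most 2361 elsewhere (adjusted p = 0.0168, limma).

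Among the patterning genes *D. virilis* was not the only species at an extreme. *D. ananassae* was the highest of the 5 species in 66 of the 140 genes, and *D. virilis* was the lowest in 75, against 14 for *D. sechellia*, 19 for *D. simulans*, 17 for *D. erecta* and 15 for *D. ananassae*. Leaving out *D. ananassae* and *D. simulans*, chosen after seeing the data, gave 91 of 140 genes below the 2 remaining species, against 40.3% of all genes under the same choice. The growth control list (Hippo and JAK/STAT) had 11 of 28 genes below and 3 above, and *dome*, the JAK/STAT receptor, fell (1401 and 1619 in *D. virilis* against 2845 to 4364, adjusted p = 0.00259, limma). *chico*, the insulin receptor substrate, rose (2807 and 2846 in *D. virilis* against 942 to 1586 elsewhere, adjusted p = 3.69e-04, limma).

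Markers of the eye disc leaned the same way as the patterning genes, but *ey*, *eya* and *Optix* belong to both sets. The 9 eye disc markers that met the rule were below all 4 others in 7 and above in none (median difference -1.23), and 2 fell in the stricter test. The summed level of the 18 markers in the table was 3637 and 4033 in the *D. virilis* libraries, against 5940 to 11335 in the 8 others. *gl*, needed for photoreceptors, had 55.0 and 64.0 in *D. virilis*, against 534 and 698 in *D. ananassae*, 383 and 168 in *D. erecta*, 849 and 396 in *D. simulans* and 361 and 129 in the *D. sechellia* libraries, and it missed the threshold (adjusted p = 0.0836, limma). Single markers did not all follow the sum. *chp* had a mean of 296 in *D. virilis*, against 189 in *D. ananassae*, 1003 in *D. erecta*, 307 in *D. simulans* and 703 in *D. sechellia*. *sev* had 204 in *D. virilis*, against 1167 in *D. ananassae*, 420.5 in *D. erecta*, a listed 0 in *D. simulans* and 536 in *D. sechellia*. *ninaE* and *boss* were below 50 in every species. The part of eye disc RNA in the patterning genes was not tested. Without the eye field genes 71 of 134 were below and 12 above, but this count drops only those names and cannot measure that part.

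The fat body markers that met the rule were also lowest in *D. virilis*. All 7 that met the rule were below all 4 others, with a median difference of -4.89. *Lsp1alpha* was listed at 0 in *D. virilis*, and also in *D. sechellia* and *D. ananassae*. None of the 5 resolved ones fell in the stricter test, and all 5 were lower against the mean of the 4 others. *Lsp1gamma*, a larval serum protein, had 27.5 and 102 in *D. virilis*, against 22168 and 6952 in *D. ananassae*, 217 and 190 in *D. erecta*, 5669 and 17173 in *D. simulans* and 259 and 545 in the *D. sechellia* libraries. *Lsp1gamma* differed widely between the libraries of one species, and the stricter test missed the threshold (adjusted p = 0.209, limma). The sum of the 17 muscle markers was 5762 in *D. virilis* against 13872 to 16226, but 12 of the 15 that met the rule lay inside the range of the others, and without the entry shared by *Act57B*, *Act87E* and *Act88F* the sum was 5555 in *D. virilis* against 5849 to 10841. The haemocyte and basement membrane markers summed to 11345 in *D. virilis* against 8615 to 9456, but 8 of the 10 that met the rule had a negative difference (median -0.65), and without *Ppn*, a basement membrane gene at 8971 in *D. virilis*, the sum lay inside the range of the others, at 2374 in *D. virilis* against 1764 to 8042. Both omissions were chosen after seeing the data. The haemocyte receptor *NimC1* was at 3.66 and 8.00 in *D. virilis* against 103 to 851 (adjusted p = 4.44e-04, limma). Their part in the other differences was not tested.

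Mitochondrial ribosomal proteins, the subunits of the ribosome that translates mitochondrial DNA, went the other way. *D. virilis* was above all 4 others in 40 of 63 genes and below in 3, with a median difference of 0.57, and 21 of 63 rose in the stricter test while 1 fell. *mRpS25* had 2000 and 1867 normalized counts in *D. virilis*, against 490 and 437 in *D. ananassae*, 483 and 442 in *D. erecta*, 392 and 430 in *D. simulans* and 364 and 376 in the *D. sechellia* libraries (difference 2.18 ± 0.07, SE, adjusted p = 4.27e-05, limma). *mRpS18C* had 680 and 742 in *D. virilis* and 173 to 354 elsewhere (adjusted p = 5.31e-04, limma). *mRpL37*, the member with the highest difference, had 1255 and 1221 in *D. virilis*, against 15.9 and 26.4 in *D. ananassae* and 584 to 688 in the libraries of the other 3 species (adjusted p = 0.0198, limma). *mRpL46* fell, at 300 and 266 in *D. virilis* against 371 to 984 elsewhere (adjusted p = 0.044, limma). The subunits of the cytoplasmic ribosome had no such lean upward: 9 of 70 were above and 25 below, and only 4 of them were resolved into libraries in every species. The 25 include *RpL10*, whose value was not read as expression, and *D. erecta* was the lowest species in 27 of the 70.

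**Figure D4:**
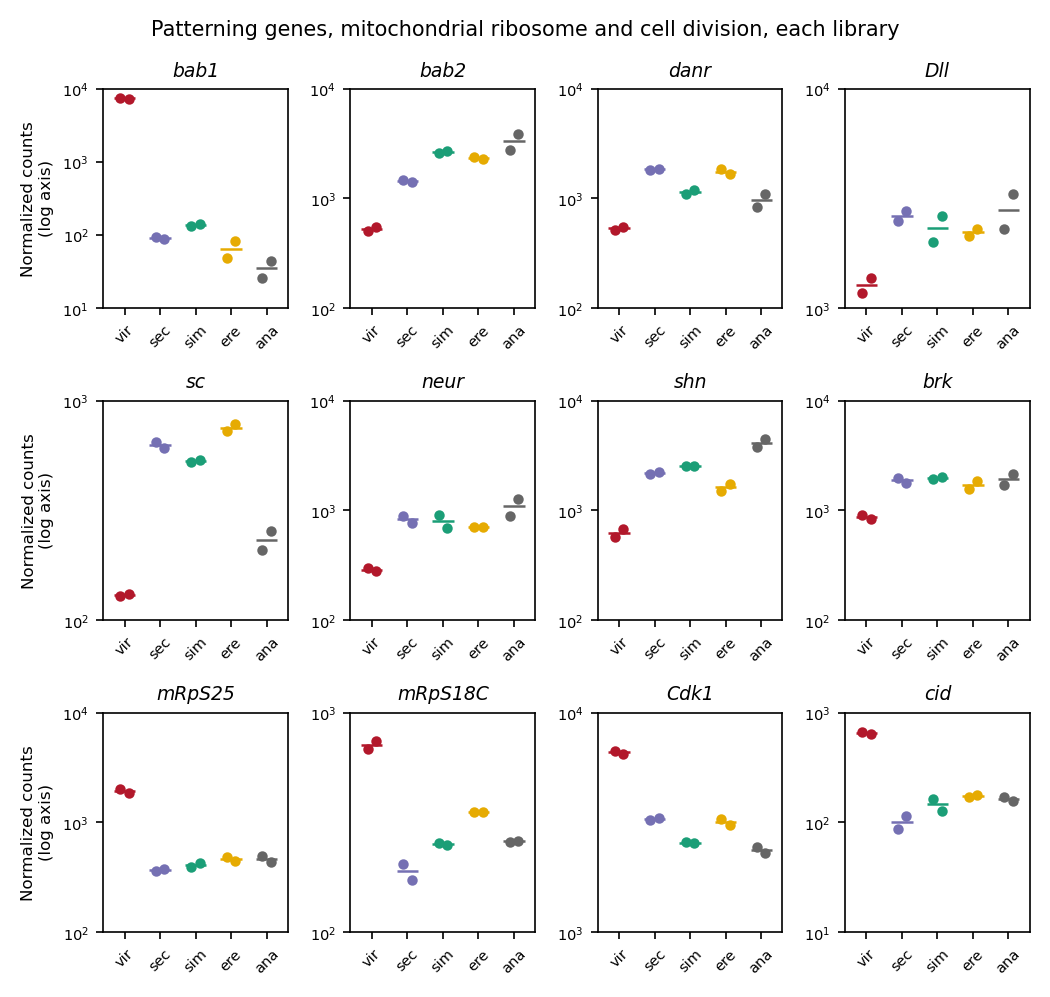
Normalized counts of both libraries (points, log axis) and their mean (line) for 12 genes of patterning, the mitochondrial ribosome and cell division, with *D. virilis* first in each panel and an axis range of its own. *bab1*, *mRpS25*, *mRpS18C*, *Cdk1* and *cid* are above all others in *D. virilis*, and *bab2*, *danr*, *Dll*, *sc*, *neur*, *shn* and *brk*, a repressor of Dpp targets added after its values were seen, are below.

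Genes of cell division and DNA replication went both ways, with 22 of 58 above all 4 others and 17 below (median difference 0.06), and 11 of 57 resolved genes rose while 6 fell. *cid*, the centromeric histone H3 variant, had 659 and 634 normalized counts in *D. virilis* against 87.4 to 177 (median 160) elsewhere (adjusted p = 4.25e-04, limma). *RnrS*, a subunit of ribonucleotide reductase, had 6807 and 6688 in *D. virilis* against 1667 to 3144 elsewhere (adjusted p = 1.88e-04, limma), and *Cdk1*, a kinase that starts mitosis, had 6707 and 6502 in *D. virilis* against 2290 to 3320, named after its values were seen (adjusted p = 1.85e-04, limma). *Psf1*, of the complex that unwinds DNA at replication forks, had 429 and 426 in *D. virilis* against 142 to 227 (adjusted p = 4.49e-04, limma). *stg*, the phosphatase that activates *Cdk1*, was on the lower side, with 540 and 682 in *D. virilis* against 968 to 3264 (adjusted p = 0.0488, limma), and so was *Orc4*, of the replication origin complex (216 and 188 against 308 to 609, adjusted p = 0.0049, limma).

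Other groups had smaller leans, or none, beside the 26.7% above and 26.1% below over all genes. Proteasome subunits were above all 4 others in 10 of 29 and below in 1, with a median of 0.13. *D. erecta* was the highest species in 9 of them and *D. simulans* in 7, and *D. sechellia* was the lowest in 19. Chaperones and heat shock proteins were above in 9 of 21 and below in 3, and *Hsc70-5*, a mitochondrial chaperone, rose (8424 and 7522 in *D. virilis* against 2722 to 4061, adjusted p = 5.09e-04, limma). Splicing and RNA export genes were above in 9 of 31 (29%), near the share of all genes, and below in 3 (9.68%). Ecdysone response genes were above in 5 of 28 and below in 9. *ImpL1*, induced by ecdysone in imaginal discs, rose (1804 and 1861 in *D. virilis*, against 45.8 and 63.2 in *D. ananassae*, 560 and 705 in *D. erecta*, 144 and 365 in *D. simulans* and 470 and 614 in the *D. sechellia* libraries, adjusted p = 0.0387, limma), and *vri*, a bZIP transcription factor, fell (354 and 452 in *D. virilis* against 978 to 1581, adjusted p = 6.81e-04, limma). Immune genes included *PGRP-SA*, a bacterial recognition protein, at 874 and 910 in *D. virilis* against 17.8 to 124 (adjusted p = 0.00282, limma), and *Myd88*, an adaptor of the Toll pathway, at 332 and 348 against 707 to 1768 (adjusted p = 8.61e-04, limma).

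Among cuticle proteins and detoxification enzymes, single genes were far apart while the shares of the lists lay nearer to those of all genes. The cuticle list had 10 of 40 genes above and 13 below, the cytochrome P450, GST and UGT list 9 of 41 above and 14 below. In the cuticle list 2 genes, and in the enzyme list 1, met the minimum of 50 through *D. virilis* alone. *Cpr47Eg*, a cuticle protein gene, had 1975 and 1769 normalized counts in *D. virilis* against 1.48 to 63.2 elsewhere, and met the minimum of 50 through its *D. virilis* mean alone, so it is given without a test. *Cyp6g2*, a cytochrome P450, had 18.3 and 8.00 in *D. virilis* against 261 to 916 (adjusted p = 4.85e-04, limma). *betaTub85D*, a tubulin best known from the testis, was at 0.92 and 0 in *D. virilis*, against 58.9 and 56.2 in *D. simulans* and 814 to 1234 in the libraries of *D. sechellia*, *D. erecta* and *D. ananassae*. The olfactory receptor and binding protein list had 231 names in the table, of which 26 genes met the rule, with 9 above and 6 below, and 2 of the 26 were above 50 in all 5 species. The gustatory receptor *Gr39a* had 423 and 538 in *D. virilis* against 0 to 27.4 elsewhere, and *Gr43a* had 425 and 448 in *D. virilis* against 5.92 to 43.0. Both are among 5 of the 26 olfactory list genes, and 166 of all 6788 genes, that met the minimum through *D. virilis* alone, so their excess is a description with no test.

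The other stages, and the *D. melanogaster* mean at the larval stage, were not used by the rule and give a separate description. These samples are other libraries, though the strains, gene models and orthologs are the same as in the larval columns. At the early pupal stage (8 h after puparium formation, with *D. virilis* sampled at 10 h), *D. virilis* was again above all 4 others in 66.1% of 1793 larval-high genes, against 26.1% of all 6706 genes measured there, and below all 4 in 62.8% of 1749 larval-low genes, against 24.4% of all genes. At the mid pupal stage (40 h, *D. virilis* 48 h) the shares were 61.7% for larval-high genes and 51.9% for larval-low genes, against 31% and 25.8% of all genes. In the adult antenna the shares were 45.1% and 42%, against 25.9% and 23.7% of all genes.

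**Figure D5:**
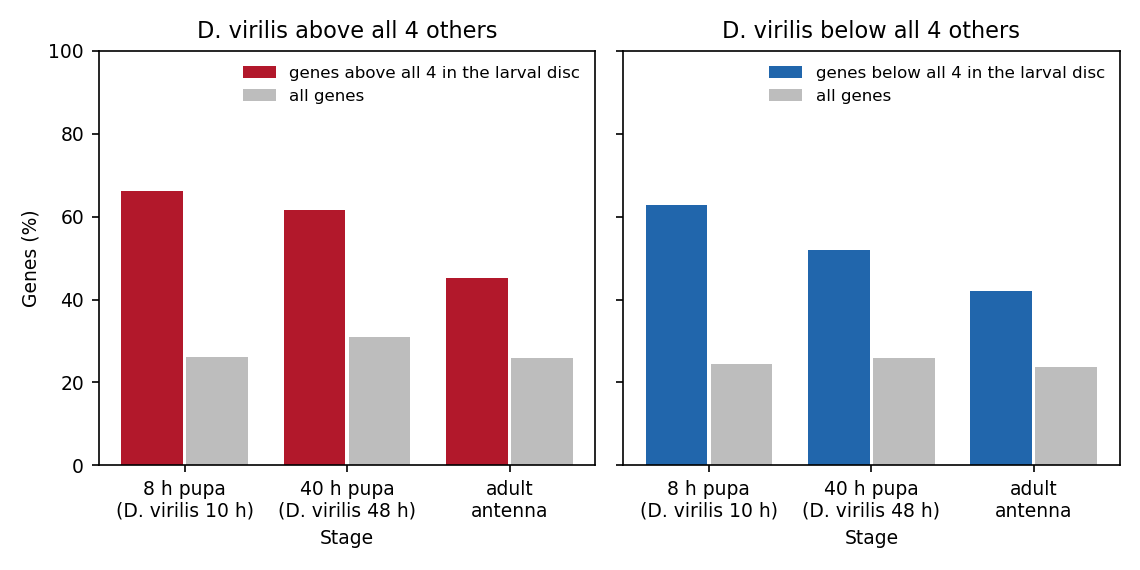
Percent of genes in which *D. virilis* was above (left) or below (right) all 4 other species at 3 later stages, for the genes with that position in the larval disc (coloured bars) and for all genes (grey bars). The coloured bars are higher than the grey bars at every stage and are lowest in the adult antenna, at 45.1% and 42%.

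At all 3 later stages together, *D. virilis* kept its position in 517 of 1754 larval-high genes (29.5%) and 388 of 1693 larval-low genes (22.9%), against 9.85% and 7.27% of all 6548 genes measured throughout. It turned to the opposite side of all 4 others at one stage or more in 334 larval-high genes (19%) and 357 larval-low genes (21.1%). Over all 6548 genes, *D. virilis* was below all 4 others at one later stage or more in 44.9% and above them in 48.7%. Of the 75 patterning genes below all 4 others in the larva, 46 were below again in the early pupa, 30 of 74 in the mid pupa and 31 of 66 in the adult antenna. Over all larval-low genes the shares below again were 62.8%, 51.9% and 42%, so these counts are no trait of the patterning genes. Of the 40 mitochondrial ribosomal protein genes above all 4 others in the larva, 28, 35 and 19 were above again at those stages. The 22 cell division genes above all 4 others in the larva were above again in 18 in the early pupa, in 11 in the mid pupa and in 5 of 20 in the adult antenna. Over all larval-high genes the shares above again were 66.1%, 61.7% and 45.1%. Against the *D. melanogaster* mean in the larval disc, *D. virilis* was higher in 1584 of 1792 larval-high genes (88.4%) and lower in 1512 of 1756 larval-low genes (86.1%), while over all genes it was higher in 51%. *D. virilis* was under *D. melanogaster* in 64 of the 75 patterning genes and over it in 35 of the 40 mitochondrial ribosomal protein genes. Of the 22 cell division genes above all 4 others, *D. virilis* was over *D. melanogaster* in 13 and under it in 9.

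Some names fell outside the rule because *D. virilis* was listed at 0. There were 80 such names with all 4 other species above 50, and 727 names with *D. virilis* above 50 and all 4 others at 0. *RpS29*, a ribosomal protein gene, and *Cdk2*, a cell cycle kinase, were among the first set, so a listed 0 can reflect a name without an entry for the species as well as no reads, and these names were not read as expression.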

How the data were processed

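The authors deposited, for each of 4 stages, 1 table with the mean DESeq2-normalized transcript count of each species, which is a signal value and not a raw count. Per the labels and the study's methods, reads were processed with CASAVA 1.8, aligned with BWA 0.7.8 to the transcriptome of each species, assigned to *D. melanogaster* names through ortholog tables, with the highest expressed transcript kept per gene, and normalized with DESeq2 by stage. The 4 *D. melanogaster* columns are the authors' means of libraries not analysed here. 0 columns hold single libraries.

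A mean of 2 normalized libraries is a whole-number combination of 2 units, so both units were estimated from the lowest values and each mean was solved for the whole-number pair that gives it; values with more than 1 solution were left unresolved. The recovery and the tests were tested on simulated data. Solved pairs were scaled to normalized values, and limma 3.58.1 in R 4.3.3 was fitted on log2(value + 1) with species as the factor, 2-sided, Benjamini-Hochberg over all resolved genes, threshold 0.05. No count model was used. Names with identical values in the 5 species were counted once.

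The members and gene lists were chosen with earlier results of these data known. Named genes are the 15 highest and 15 lowest differences with a symbol, plus 3 CG-numbered genes each way, among *D. virilis*-specific genes above 50 in all 5 species with both *D. virilis* libraries outside all others; from each list up to 4 genes per direction could be named. Columns of fold changes or p-values were not used. Alternatives tried were other expression minimums, pseudocounts of 0.5 and 10, a trended prior variance, rescaled species, and leaving out species or libraries.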

Additional observations from a re-analysis of the deposited data

Results flagged for a closer look

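In 4 named genes *D. virilis* lay outside all 4 other species in one direction in the larval disc and in the opposite direction at a later stage, by 2-fold or more each time, counting only later stages where the gene was above 50 in all 5 species. These contrasts rest on the authors' means, and the difference between stages was not tested. *ImpL1* had a difference of 2.80 on the log2 scale in the larva and -3.43 at 40 h (*D. virilis* 48 h), with means of 1186 in *D. virilis* against 4910 to 21711 in the 4 others. *Cyp301a1*, a cytochrome P450, had 2.73 in the larva and -2.79 at that stage (638 in *D. virilis* against 1557 to 10392). *RyR* had 3.15 in the larva and -1.47 at that stage (348 in *D. virilis* against 788 to 1581). *arr*, a Wingless co-receptor, had -1.79 in the larva and 1.32 in the adult antenna (1295 in *D. virilis* against 465 to 577). No group had 4 or more libraries, so no single library was screened for standing apart.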

How the results depend on the processing

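The count of *D. virilis*-specific genes, 3586 (1815 above and 1771 below), stayed within 1.5 times under every alternative run but 2: asking for a distance of at least 2-fold left 776, and leaving out *D. ananassae* and *D. simulans* together, chosen after seeing the data, gave 5406, since fewer species then have to be exceeded. Leaving out each library gave 3378 to 3434 among resolved genes. The stricter limma count, 1523, ranged from 1052 to 1503 when each library was left out, lowest without *D. virilis* library A (524 higher and 528 lower); a lone *D. virilis* library is assumed to vary like the other groups. The count against the mean of the 4 others, 4649, ranged from 3891 to 4700, and the median difference from 0.013 to 0.029. Rescaling changed no direction of 185 named differences. *Eip55E*, an ecdysone-induced gene named here because its sign turned, had a difference of 0.80, which became -0.209 without *D. virilis* library A and 1.388 without library B (the libraries had 4172 and 1379 normalized counts). Leaving out a species moved 251 of 740 values; it cannot turn the sign of a gene that lies outside all 4 others. The edgeR test on recovered reads was not run, because abundant genes were not resolved. No paired analysis was possible because the mean columns carry no replicate numbers. Depth limits low genes, where 1 read is about 1 normalized count.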
